A study of Bos taurus with 6 samples.

Results

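The miRNAs of the imprinted DLK1-DIO3 locus were examined in granulosa cells, the somatic cells that surround the oocyte inside the ovarian follicle, of cattle (Bos taurus). Members were set by name: all mature bovine miRNAs carrying 1 of 35 numbers known from this locus in mammals. Any letter or arm suffix was allowed. The list was drawn up with earlier results of these data known. It gave 50 of the 755 mature miRNA names in the files. The study compared preovulatory dominant follicles, the large follicles expected to ovulate, with anovulatory subordinate follicles. Both came from the same Simmental heifers at day 19 of the estrous cycle, and all heifers had received the same estrous synchronization with a prostaglandin analogue and a gonadotropin releasing hormone analogue. The groups therefore share animal, day and treatment and differ in follicle type, which the study set by surface diameter. RNA of granulosa cells was pooled into 3 libraries for preovulatory dominant and 3 for subordinate follicles. Far fewer dominant than subordinate follicles were available, so a dominant library holds few follicles and a subordinate library may hold many. In such bulk samples, fewer cells of a type and less RNA per cell cannot be told apart.

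The DLK1-DIO3 locus is one of the large imprinted regions of placental mammals. The protein-coding genes DLK1, RTL1 and DIO3 are expressed from the paternal chromosome, while the long non-coding RNAs MEG3 and MEG8, a series of small nucleolar RNAs and the miRNAs are expressed from the maternal one. The miRNAs lie in an upstream group, part of which is antisense to RTL1, and in a large downstream cluster that runs from miR-379 to miR-410 and miR-656. The miRNAs antisense to RTL1 match its transcript perfectly and can direct its cleavage. The locus is best known for its activity in placenta, embryo, brain and muscle, and in sheep it carries the callipyge muscling trait.

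The names were checked against the bovine gene table of RefSeq (assembly ARS-UCD2.0). For 49 of the 50 names a precursor gene lies between DLK1 and DIO3. The exception was bta-miR-544b, whose 2 precursors lie on other chromosomes. It had no read in any library, so it adds nothing to the values below. All 7 names of the upstream group lie between MEG3 and the precursor of miR-370, and 5 of them start within RTL1. The single name bta-miR-370 follows. The 41 remaining names of the locus all lie between miR-370 and MEG9.

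The counts are whole sequence reads per mature miRNA. With 1 value per mature name, libraries of dominant follicles totalled 190385 to 311842 reads and those of subordinate follicles 306932 to 364125. Levels are given as CPM, the usual depth-scaled count, after TMM scaling, edgeR's correction for the composition of a library. By total count, 3 reads correspond to between 8.24 and 15.8 CPM. A share is a percentage of the library total. The Wilson intervals of shares and the limits set by a count of 0 cover counting error only, whereas the intervals of fold changes come from the fit and include the spread between libraries.

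A single miRNA carried most of the reads of the locus. Over the 6 libraries the 50 names took 2008 reads, of which bta-miR-127 held 1736 (86.5%). The other 49 names together held 272. At least 1 read was found for 32 names and none for 18. The upstream group without bta-miR-127 had 60 reads, the downstream group of 42 names had 212, and bta-miR-370 had 0. Only bta-miR-127 and bta-miR-410, the miRNA near the far end of the downstream cluster, reached a mean of 10 reads in a group.

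**Figure D1:**
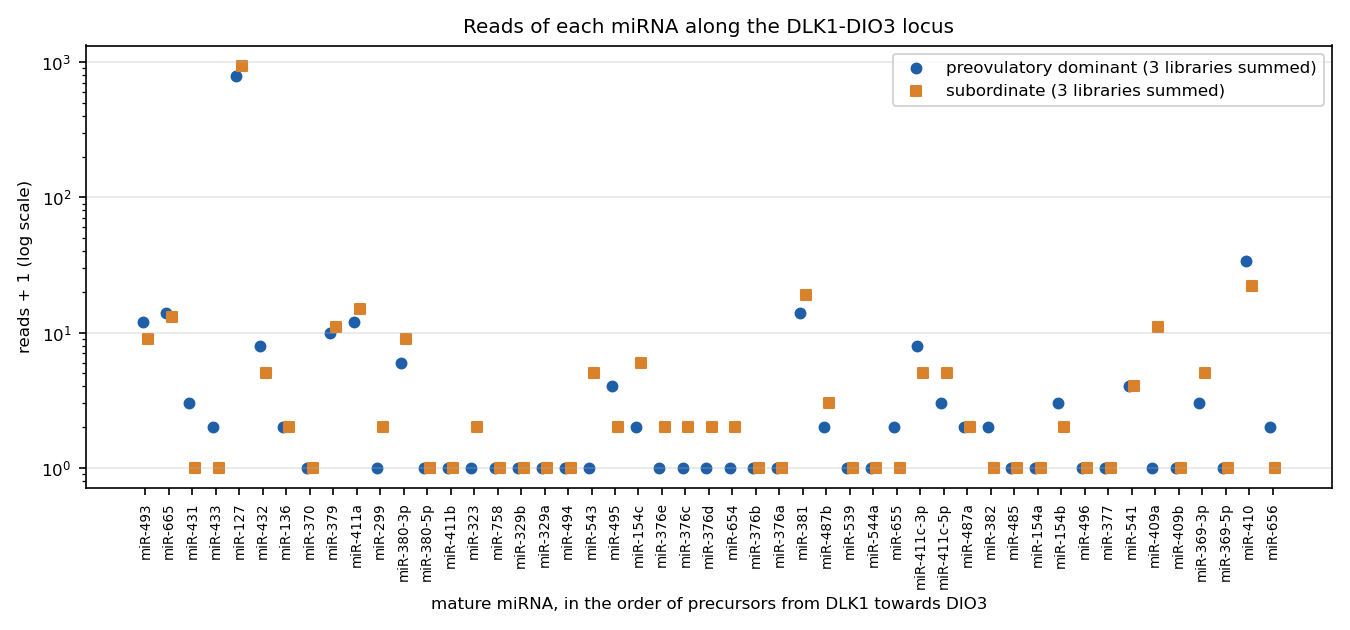
Reads of the 49 names that lie in the locus, in the order of their precursors from DLK1 towards DIO3, with the 3 libraries of a group summed; the vertical axis is reads plus 1 on a log scale. Bta-miR-127 stands at 794 reads in preovulatory dominant and 942 in subordinate follicles, and the next name, bta-miR-410, at 33 and 21.

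A miRNA was taken as detected, after the rule of the study, if 2 or more of the 3 libraries of a group held a read of it. Dominant follicles passed this for 15 members and subordinate follicles for 16, with 12 in common. That left 19 members (38.0%) for the test, whereas 353 of all 755 names (46.8%) entered it. Their counts were low: the mean over the 6 libraries had a median of 1.83 reads in the 19 members and of 15.5 reads in the 353 miRNAs.

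The summed share of the locus was similar among the 3 dominant libraries and uneven among the subordinate ones. It was 0.118% of all reads in dominant replicate 1 (95% Wilson interval 0.105 to 0.132), 0.135% in replicate 2 (0.120 to 0.153) and 0.116% in replicate 3 (0.105 to 0.129). In subordinate follicles it was 0.0748% in replicate 1 (0.0660 to 0.0847), 0.0802% in replicate 2 (0.0715 to 0.0899) and 0.177% in replicate 3 (0.163 to 0.193). All 3 dominant libraries lay above subordinate replicates 1 and 2 and below subordinate replicate 3, so the groups overlapped. The means were 0.123 ± 0.0105% (SD, n = 3) and 0.111 ± 0.0577% (SD, n = 3), a log2 ratio of 0.15 that is well inside the spread of the subordinate libraries. It became -0.07 with TMM scaling and 0.67 without subordinate replicate 3. Among same-numbered libraries, the dominant one had 1.57 times the share of the subordinate one for number 1, 1.68 times for number 2 and 0.655 times for number 3. No p is given for this sum, since its members were chosen with results of these data known.

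**Figure D2:**
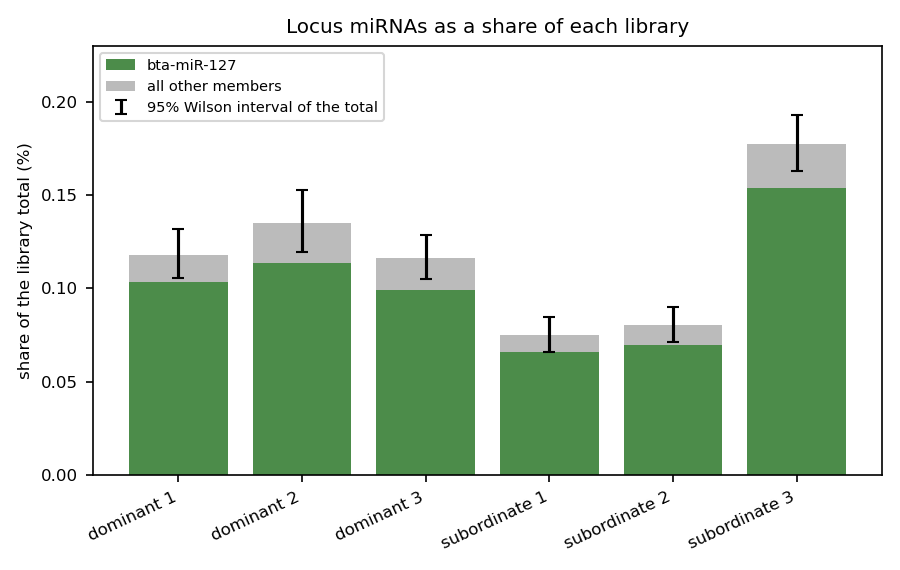
Share of the library total (%) taken by the locus in each library, split into bta-miR-127 and all other members; whiskers are 95% Wilson intervals of the sum. The dominant libraries sit between 0.116 and 0.135%, subordinate replicates 1 and 2 at 0.0748 and 0.0802%, and subordinate replicate 3 at 0.177%.

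The share of bta-miR-127 in the locus reads was similar in all libraries. As this miRNA holds most of the reads, its share says little about the make-up of the other members. Bta-miR-127 took 87.9, 84.0 and 85.4% of the locus reads in the dominant libraries and 87.9, 87.0 and 86.6% in the subordinate ones. The Wilson intervals of these shares all overlapped, the lowest reaching from 79.1 to 88.0%. The rise in subordinate replicate 3 was therefore found in bta-miR-127 and in the remaining members at once. The CPM there was 2.27 times the mean of subordinate replicates 1 and 2 for bta-miR-127 and 2.44 times for all other members summed. The other upstream members, summed, were at 2.87 times that mean and the downstream members at 2.35 times. Among the 18 tested members other than bta-miR-127, 13 were higher in subordinate replicate 3 than in both other subordinate libraries, against 34.3% of all tested miRNAs. Most of these 13 rest on few reads. Bta-miR-409a, bta-miR-543 and bta-miR-487b are among them and passed the detection rule in subordinate follicles alone. Bta-miR-487b and bta-miR-411c-5p had as many reads in another subordinate library and were higher only after scaling. The count is a description and no test.

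Markers of other cell types were compared between the same libraries. A set of 6 miRNAs was taken as markers of stroma and theca, the connective tissue and steroid-producing layer around the granulosa cells, and all 6 had reads. Their summed level was between 17640 and 27862 CPM in preovulatory dominant and between 21106 and 35797 CPM in subordinate follicles. Most of this sum was bta-miR-143 in every library. Bta-miR-214 was called lower in dominant follicles (log2 fold change -1.20, adjusted p = 0.0417, edgeR). Bta-miR-199b was also higher in every subordinate than in every dominant library but was not called (adjusted p = 0.150, edgeR). The groups overlapped in the other markers of this list. In subordinate replicate 3 the sum was 1.21 times the mean of the other subordinate libraries, and the members of the list differed. Bta-miR-199a-5p was at 1532 CPM there against 511 and 592 CPM, and bta-miR-199b at 198 against 41.3 and 45.3 CPM. Bta-miR-199a-3p and bta-miR-214 were also highest in this library, at 1440 and 155 CPM. Bta-miR-143 and bta-miR-145, both known from smooth muscle, were not: they reached 30239 and 949 CPM against 32963 and 1106 CPM in subordinate replicate 2.

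The other lists gave a mixed picture. The 2 endothelial markers, bta-miR-126-5p and bta-miR-126-3p, summed to 540 CPM in subordinate replicate 3, to 354 and 385 CPM in the other subordinate libraries and to between 73.2 and 293 CPM in the dominant ones. The 3 red blood cell markers went the other way, with 808 CPM in subordinate replicate 3, 1512 and 1530 CPM in the other subordinate libraries and between 1048 and 13091 CPM in the dominant ones. The 4 leukocyte markers summed to between 408 and 558 CPM in subordinate and between 258 and 1115 CPM in dominant follicles. The 6 epithelial markers never exceeded 29.5 CPM in sum, and bta-miR-205 was at 0 in every library. Bta-miR-202, a miRNA of gonadal somatic cells, was at 43510 to 46751 CPM in dominant and at 11576 to 15231 CPM in subordinate follicles. The part of these cell types in the locus values was not tested.

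**Figure D3:**
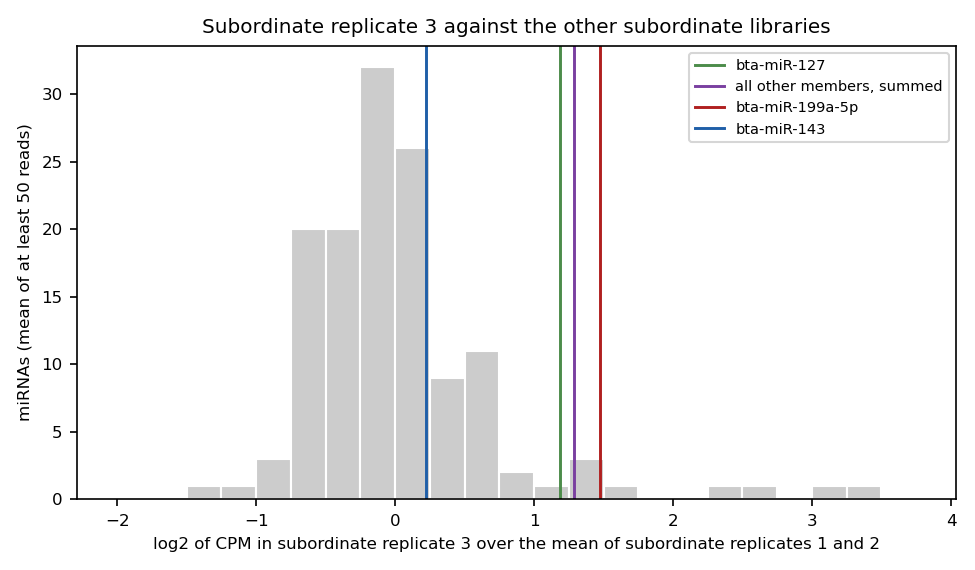
Histogram of the log2 ratio of CPM in subordinate replicate 3 to the mean of subordinate replicates 1 and 2, for the miRNAs averaging 50 or more reads; vertical lines mark bta-miR-127, the sum of all other members, and the stromal markers bta-miR-199a-5p and bta-miR-143. On the linear scale the ratio was 2.27 for bta-miR-127, 2.44 for the other members, 2.78 for bta-miR-199a-5p, 1.16 for bta-miR-143 and 0.930 for the median miRNA.

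Bta-miR-127, a miRNA antisense to RTL1, was counted 269, 216 and 309 times in the dominant libraries and 217, 254 and 471 times in the subordinate ones. As CPM these were 949, 1002 and 984 in dominant and 641, 822 and 1662 in subordinate libraries. The dominant libraries lay close together, between the lower and the highest subordinate values. Their coefficient of variation was 2.74%, less than the 5.69 to 6.80% that counting error alone gives at these reads. In subordinate follicles it was 52.3%, where the median of the miRNAs averaging 50 or more reads was 18.1%. Subordinate replicate 3 held bta-miR-127 at rank 53 of all names by reads, and the other 5 libraries held it at ranks 73 to 80.

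No difference in bta-miR-127 was detectable between the follicle types. The log2 fold change of dominant over subordinate was -0.09 (standard error 0.335, 95% interval -0.85 to 0.68, adjusted p = 0.855, edgeR). The interval leaves room for a change of either sign. The estimate changed sign to 0.13 with scaling by total count, to 0.03 with the replicate number as a block and to 0.42 without subordinate replicate 3, where its adjusted p was 0.167. Scaling by total count moved the median of all tested miRNAs by 0.19 on the log2 scale. Relative to that median, bta-miR-127 was at 0.11 with TMM and at 0.14 with total count.

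The other 6 upstream names were rare. Bta-miR-665 had 3, 2 and 8 reads in dominant and 3, 3 and 6 in subordinate libraries. Bta-miR-493, the first miRNA of the locus after MEG3, had 4, 3 and 4 reads in dominant libraries and 0, 3 and 5 in subordinate ones. The groups overlapped in both, with adjusted p of 0.793 and 0.636, respectively (edgeR). For bta-miR-493 the dominant libraries lay close together, at 12.7 to 14.1 CPM, and the subordinate ones ranged from 0 to 17.6 CPM. At 0 to 5 reads per library the counting error is large, so neither the closeness nor the spread can be read as a pattern. Bta-miR-432 had 4, 2 and 1 reads in dominant and 1, 0 and 3 in subordinate follicles. Bta-miR-431 was read once in dominant replicate 2 and once in dominant replicate 3 and not in subordinate follicles, which is below the 3 reads that a count of 0 allows. Bta-miR-136 and bta-miR-433, which also lie within RTL1, had 2 reads and 1 read in all 6 libraries together. Summed, the 6 names had 11, 10 and 14 reads in dominant and 4, 7 and 14 in subordinate libraries, or 43.3 ± 3.95 and 28.0 ± 19.4 CPM (SD, n = 3 each).

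In the downstream cluster bta-miR-410 was the most abundant. It had 10, 11 and 12 reads in dominant and 2, 7 and 12 in subordinate libraries, which is 35.3, 51.0 and 38.2 CPM against 5.91, 22.6 and 42.3 CPM. The groups overlapped only through subordinate replicate 3. Its log2 fold change was 0.82 (standard error 0.624, 95% interval -0.61 to 2.24, adjusted p = 0.380 from edgeR), and without subordinate replicate 3 it was 1.52 with an adjusted p of 0.162. Bta-miR-381 had 3, 4 and 6 reads in dominant and 2, 3 and 13 in subordinate libraries. Its value in subordinate replicate 3, 45.9 CPM, was the highest of the 6 libraries. Bta-miR-411a was read 3, 1 and 7 times in dominant and 1, 5 and 8 times in subordinate libraries. Bta-miR-379, the first miRNA of the cluster, was read 2, 5 and 2 times against 4, 1 and 5 times. Neither bta-miR-381 nor bta-miR-411a nor bta-miR-379 differed beyond the spread of the libraries (adjusted p of 0.791, 0.849 and 0.932 from edgeR).

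**Figure D4:**
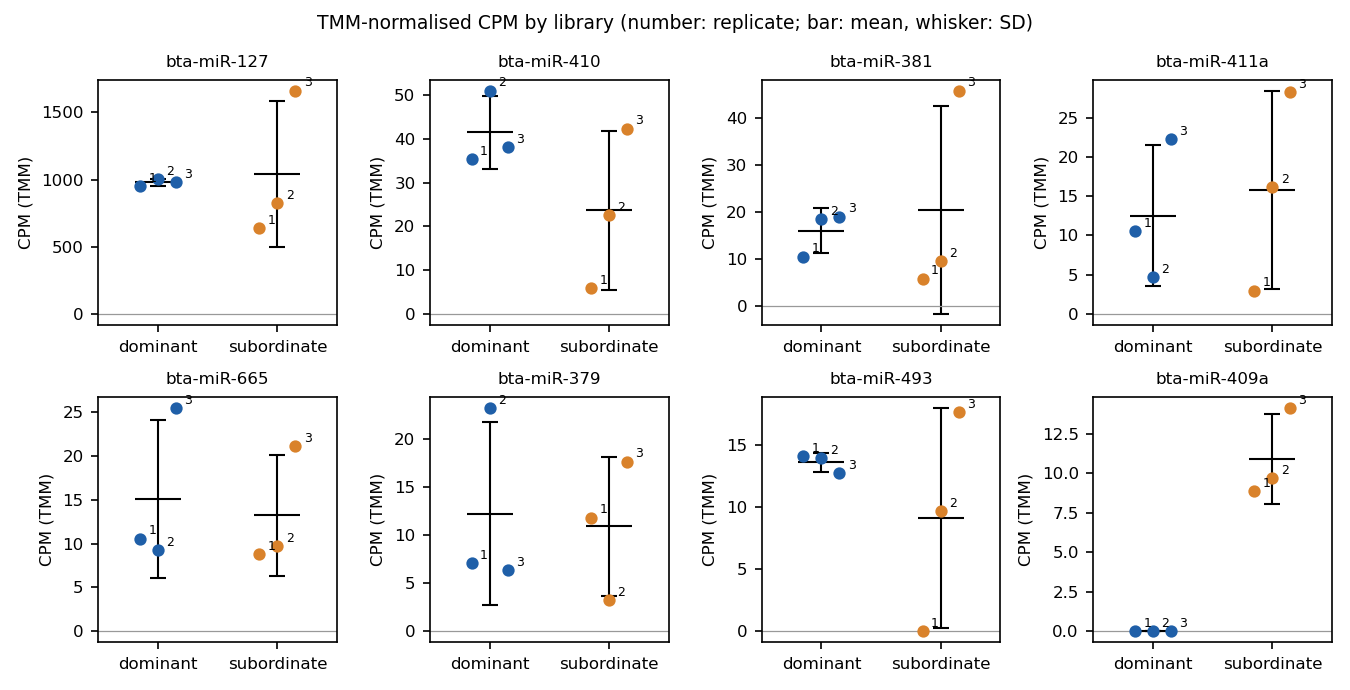
TMM-normalised CPM of 8 members in each library; points are libraries with their replicate number, the horizontal bar is the group mean and the whisker the SD (n = 3), which may pass below 0. Subordinate replicate 3 holds the highest subordinate value in each panel, and in the panel of bta-miR-409a all 3 dominant libraries are at 0.

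Bta-miR-409a was the one member that passed the thresholds of the study, which ask for a log2 fold change of 1 or more in either direction, a p no higher than 0.05 and an adjusted p no higher than 0.1. It was called lower in dominant follicles, as were 9.63% of all tested miRNAs. It entered the test through the subordinate libraries alone, so the filter favoured this direction. It was read 0, 0 and 0 times in the dominant and 3, 3 and 4 times in the subordinate libraries, or 8.86, 9.70 and 14.1 CPM in the latter. In a single dominant library 3 reads would be 9.55 to 13.9 CPM, above the 8.86 CPM of subordinate replicate 1 and below the 14.1 CPM of subordinate replicate 3. Over the group, 0 of 762084 reads allows up to 3.94 CPM by total count, and 10 of 1001367 reads in subordinate follicles are 9.99 CPM. The subordinate level of bta-miR-409a was thus 2.54 times the upper limit in preovulatory dominant follicles. This ratio leaves out the counting error of the 10 reads, so it is no lower bound of the fold change. In edgeR's quasi-likelihood test the adjusted p was 0.0320. The fitted log2 fold change of -4.71 depends on the prior count and is no bound. Over the alternatives fitted with edgeR the adjusted p was between 0.0320 and 0.0984, the highest with the replicate block. DESeq2 gave an unadjusted p of 0.0496 and no adjusted p, and a minimum of 10 reads in at least 3 libraries removed the miRNA from the test.

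The neighbours of bta-miR-409a that had reads were read in both groups. Bta-miR-410, a little farther along the same cluster, had 33 reads in dominant follicles, where bta-miR-409a had 0, and 21 in subordinate follicles, where bta-miR-409a had 10. Bta-miR-369-3p, which lies between them, had 2 reads in dominant and 4 in subordinate follicles. Bta-miR-541, on the other side, was read 3 times in each group. Bta-miR-409b had no read. One other member, bta-miR-543, was read only in subordinate follicles, 1, 1 and 2 times. Its p of 0.0386 in edgeR's test became 0.119 after adjustment. Its summed count stands only 1.01-fold above what 0 reads in the dominant libraries allow.

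Across the 19 tested members, 1 was called lower in preovulatory dominant follicles (5.26%), where 9.63% of all 353 tested miRNAs were. No member was called higher, where 11.9% of all tested miRNAs were. Over all tested miRNAs these shares are 42 higher and 34 lower calls, which became 47 and 23 with scaling by total count. At an unadjusted p under 0.05, edgeR gave 0 members higher and 2 lower, and DESeq2 gave 1, bta-miR-409a. In the fit made here DESeq2 called no member under the thresholds of the study, but it gave no adjusted p for 12 of the 19. Bta-miR-409a was 1 of these, with a log2 fold change of -4.00 and an unadjusted p of 0.0496, so it could not be called. The study, which also used DESeq2, lists bta-miR-409a among the miRNAs reduced in preovulatory dominant follicles, with a false discovery rate within its limit of 0.1. The CPM of the groups did not overlap in 2 members (10.5%), bta-miR-409a and bta-miR-543, against 36.8% of all tested miRNAs. Both passed the detection rule in subordinate follicles alone and had no read in dominant ones. The filter thus helped to set their direction, and their lack of overlap is no separate support. Of the 19 fold changes, 9 were above and 10 below 0, with a median of -0.09 on the log2 scale beside -0.20 over all tested miRNAs. With scaling by total count 10 were above 0. With bta-miR-409a and bta-miR-543 set at the limit of a count of 0 and bta-miR-431 left out, the median was -0.06. The low counts left the 95% intervals wide. In the 16 members with reads in both groups the interval spanned 1.53 on the log2 scale for bta-miR-127 and between 2.85 and 6.47 for the others. Except for bta-miR-127, each interval thus reached more than 1 to either side of its estimate.

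**Figure D5:**
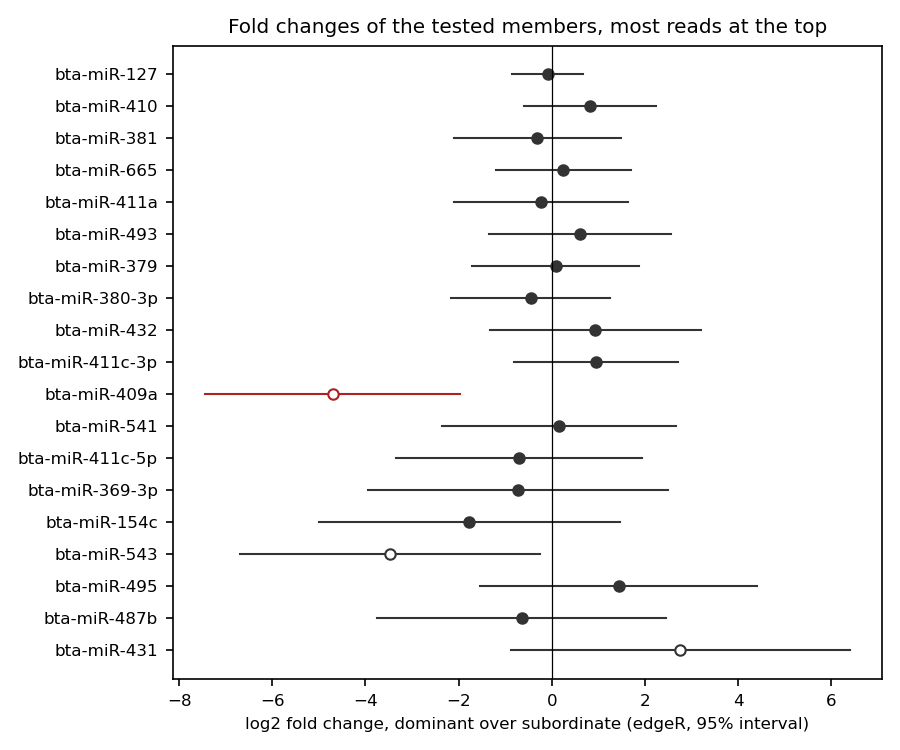
Log2 fold change of dominant over subordinate follicles with its 95% interval for the 19 tested members, ordered by reads; open circles mark members with no read in a group, whose fold change depends on the prior count. Bta-miR-409a, in red, passed the thresholds, and the interval includes 0 for 17 of the 19.

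For 3 precursors of the locus the files list both arms. Of miR-411c the 5p arm had 0, 1 and 1 reads in dominant and 2, 0 and 2 in subordinate libraries, and the 3p arm had 1, 3 and 3 reads against 1, 1 and 2. The 5p arm summed to 6 reads and the 3p arm to 11. For miR-380 all 13 reads and for miR-369 all 6 reads fell on the 3p arm. The fold changes of the miR-411c arms had opposite signs, -0.70 for the 5p and 0.95 for the 3p arm, and both missed the thresholds (adjusted p of 0.688 and 0.419 from edgeR). The difference between the arms was not tested.

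Among the remaining members, 13 had reads but were not detected under the rule of the study, with at most 2 reads in a library and 1 to 3 reads in all. They were bta-miR-136, bta-miR-154b, bta-miR-299, bta-miR-323, bta-miR-376c, bta-miR-376d, bta-miR-376e, bta-miR-382, bta-miR-433, bta-miR-487a, bta-miR-654, bta-miR-655 and bta-miR-656. The 18 names without a read were bta-miR-154a, bta-miR-329a, bta-miR-329b, bta-miR-369-5p, bta-miR-370, bta-miR-376a, bta-miR-376b, bta-miR-377, bta-miR-380-5p, bta-miR-409b, bta-miR-411b, bta-miR-485, bta-miR-494, bta-miR-496, bta-miR-539, bta-miR-544a, bta-miR-544b and bta-miR-758. A count of 0 in all 1763451 reads allows up to 1.70 CPM. The miR-376 family, of which 5 names are listed and whose transcripts are known to be edited in other tissues, thus had 3 reads in all. A further 10 numbers belong to the locus in other mammals, among them miR-134, known from neurons. The files list 6 names for them, and all were at 0 in every library: bta-miR-134, bta-miR-412, bta-miR-453, bta-miR-1185, bta-miR-1193 and bta-miR-1197.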

How the data were processed

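Small RNA of granulosa cells was sequenced by the authors, who pooled RNA into 3 libraries per follicle type. They used Cutadapt and Seqtk to trim adapters and drop reads that were too short or of low quality, mapped reads to the bovine genome with Bowtie (UMD3.1 and CASAVA 1.8.0 are named in the submitters' processing notes) and counted them on the mature bovine miRNAs of miRBase with miRDeep2. The deposited values are counts of reads, without normalization, in 906 rows per library, 1 for each pair of mature miRNA and precursor. A mature miRNA with several precursors (73 names) is listed more than once, and its largest row was used here. Libraries of 190385 to 364125 reads put 3 reads at 8.24 to 15.8 CPM by total count.

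Sample labels gave the group and the replicate number of each library. The labels call the libraries biological replicates. They are pools of follicles, and which animals entered which pool is not given in the sources used here, so p-values measure the spread between these pools. The follicle types were compared in edgeR 4.0.16 under R 4.3.3, with TMM factors and a quasi-likelihood model holding follicle type alone. P-values were adjusted by Benjamini-Hochberg over the 353 miRNAs with a read in 2 or more libraries of a group. The standard error is the absolute log2 fold change over the square root of F, and 95% intervals use the degrees of freedom of the fit. The script was tested on simulated data. Deviations from the group means correlated between same-numbered libraries (r = 0.136, 0.378 and 0.408 over 194 miRNAs averaging 10 or more reads). By the rule used here, a correlation over 0.1 in every pair, the numbers were taken to pair the libraries. The main fit leaves this pairing out, so its p-values and intervals treat the libraries as unpaired. With the replicate number as a block in edgeR, the adjusted p was 0.0984 for bta-miR-409a and 0.943 for bta-miR-127. Pair 1 did not stand out: dominant replicate 2 with subordinate replicate 1 gave r = 0.193 and dominant replicate 1 with subordinate replicate 2 gave 0.124. The labels do not say what same-numbered libraries share. DESeq2 1.42.0, other scalings and filters, summed rows, the replicate block and leaving out each library were tried as alternatives. Other steps were run in Python 3.11.15 with pandas 2.3.3, numpy 2.4.6, matplotlib 3.10.9 and scipy 1.17.1.

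The members and the lists of markers and further miRNAs were chosen with earlier results of these data known. Members averaging 10 or more reads in a group, members called by either tool and those the study names were described in full, and other members that are named with values were chosen after their values were seen. RefSeq (ARS-UCD2.0) differs in build from the files and was used only for the order of genes. Mature sequences were not used here.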

Additional observations from a re-analysis of the deposited data

How the results depend on the processing

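The number of members called lower in preovulatory dominant follicles was 1 in 13 of the 15 alternatives and became 0 with DESeq2, which gave bta-miR-409a no adjusted p, and 0 with a minimum of 10 reads in at least 3 libraries, which removed it from the test. The number called higher was 0 in all 15. Calls over all tested miRNAs stayed within 1.5 times of 42 higher and 34 lower in every alternative, with 38 and 33 under the replicate block. The block ended no call named here. The log2 fold change of bta-miR-127 was never called and changed sign with total count scaling (0.13) and with the replicate number as a block (0.030), and ranged from -0.34 to 0.42 when each library was left out. That of bta-miR-409a ranged from -4.79 to -4.50 in the same fits and stayed called. The log2 ratio of the locus share ranged from -0.066 to 0.67 when each library was left out, the highest without subordinate replicate 3, and from -0.09 to 0.29 under the other settings, without bta-miR-127 for the latter. Leaving out bta-miR-544b, an alternative chosen after seeing the data, kept it at 0.15. Leave-one-out fits kept the miRNAs tested in the full set. Depth limits all members but bta-miR-127: 17 of the 19 tested had a mean under 10 reads in both groups.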

Other observations

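Bta-miR-127 was not alone in standing out in subordinate replicate 3. Among the miRNAs averaging 50 or more reads, 8 exceeded its ratio of 2.27 to the mean of subordinate replicates 1 and 2. They are named here after their values were seen: bta-miR-1246 (10.4), bta-miR-212 (8.24), bta-miR-100 (5.69), bta-miR-1271 (5.22), bta-miR-99a-5p (3.03), bta-miR-199a-5p (2.78), bta-miR-99b (2.48) and bta-miR-2285k (2.40). The next below bta-miR-127 was bta-miR-125b at 1.92.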
